A study of Rattus norvegicus with 6 samples.

Results

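The genes described here encode the enzymes and regulators by which cells build, desaturate, lengthen, activate and burn fatty acids. They were chosen by symbol from the deposited table of rat oligodendrocyte cultures, 34 genes of the 37991 in it. Of these, 27 belong to the synthesis side, which covers acetyl-CoA and NADPH supply, the carboxylases and the synthase, transcription factors, desaturases, elongation and acyl-CoA synthetases. The other 7 belong to mitochondrial oxidation. The members were chosen for their function and not by a measured value, with earlier results of these data known. The RNA came from cells of the oligodendrocyte lineage of SD rats in culture, as 3 libraries of differentiated oligodendrocytes and 3 libraries of oligodendrocyte precursors, the control condition before differentiation. All cultures were grown in Raff medium, and differentiation followed a change of growth factors, per the labels' protocols. The titles place replicates 1 and 2 at day 3 for differentiated cells and day 0 for precursors, and give no day in that form for replicate 5. The labels give no genotype or animal age. They do not tell whether the replicates came from different cultures, and the p-values then reflect the variation among these libraries alone, part or all of which may be technical.

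Fatty acid synthesis starts in the cytosol from acetyl-CoA, which carboxylase turns into malonyl-CoA and the synthase joins into palmitate with electrons from NADPH. Desaturases then add double bonds and a membrane-bound cycle of condensing, reducing and dehydrating enzymes lengthens the chain, while acyl-CoA synthetases attach the coenzyme that both membrane lipid synthesis and oxidation need. Oxidation runs in mitochondria after the carnitine shuttle has carried the acyl chain across the membrane, and malonyl-CoA inhibits the first step of that shuttle. Myelin, the sheath that oligodendrocytes wrap around axons, is made mostly of lipid, and its lipids hold many long and very long acyl chains.

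Total read counts were between 55522101 and 79898629 per library, and levels are given as CPM, counts scaled to a common library total with TMM factors (trimmed mean of M values). A floor of 3 counts per library corresponded to 0.0417 to 0.0546 CPM and covers counting error only. The oligodendrocyte identity of the differentiated cultures was checked on 8 myelin markers, of which 8 passed the test as higher, and their summed level was 18171 to 21431 CPM in differentiated libraries, against 1394 to 2170 CPM in precursor libraries. Of 6 genes listed as precursor markers, 0 passed the test in either direction without the replicate block described below. Without the block, 5.65% of all tested genes were higher and 3.21% lower, the background for each unblocked marker count here. With the block, 4 precursor markers were higher (Sox10, C1ql1, Olig2 and Cspg4), 1 was lower (Ptprz1) and Pdgfra was not called. Sox10 and Olig2 are expressed across the oligodendrocyte lineage, so their levels do not tell precursors from differentiated cells. Astrocyte markers summed to 7820 to 8096 CPM in differentiated libraries, against 4308 to 6098 CPM in precursor libraries. Of the 9 tested, 3 passed as higher (Aldh1l1, Gja1 and Aldoc), with the largest log2 fold change for Aldh1l1 at 2.11 (adjusted p by edgeR = 0.00434). With the block, 7 were higher and 0 lower, where 14.9% of all tested genes were higher and 15.7% lower. Slc1a2 (log2 fold change -0.30) and Sox9 (-0.05) went the other way and were not called in either fit. The defining astrocyte member Gfap stood at 5702 to 6114 CPM in differentiated libraries, against 3195 to 4812 CPM in precursor libraries, without overlap. Gfap thus made up most of the astrocyte sum in every library, so that sum says little about the other markers. Gfap did not pass without the block (adjusted p by edgeR = 0.0849) and was higher with it (adjusted p by edgeR = 0.0138). Microglia markers summed to 534 CPM in differentiated 1 and 724 CPM in precursor 1, and to between 298 and 311 CPM in the other 4 libraries, so both replicate 1 libraries stood apart in this respect. The same libraries were highest for fibroblast and pericyte markers, at 60.8 CPM in differentiated 1 and 80.7 CPM in precursor 1 against 20.4 to 32.9 CPM in the others, and for endothelial markers, at 28.6 CPM in differentiated 1 and 39.3 CPM in precursor 1 against 12.3 to 18.1 CPM in the others. Of these lists Rgs5 and Cldn5 had 0 reads in all 6 libraries, and Pdgfrb passed as higher. Neuron markers summed to 234 to 276 CPM in differentiated libraries, against 223 to 406 CPM in precursor libraries, and 1 of the 8 tested, Stmn2, passed as lower (log2 fold change -0.84). Schwann cell and choroid plexus markers summed to 193 to 257 CPM in differentiated libraries, against 303 to 469 CPM in precursor libraries, and 1 of 5, Ttr, passed as lower (log2 fold change -0.98). The part that other cell types had in the values below was not tested, and in these bulk samples fewer cells of a type and less RNA per cell cannot be told apart.

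Desaturases, suppliers of acetyl-CoA and NADPH, the regulator Srebf1 and some elongation and synthetase genes were higher in differentiated cells, while no oxidation gene passed the same test. With edgeR's quasi-likelihood test and Benjamini-Hochberg adjustment over 17797 genes, 15 of the 26 synthesis-side members tested rose and 0 fell at an adjusted p under 0.05, where 5.65% of all tested genes rose and 3.21% fell. Of the 7 oxidation members, 0 rose and 0 fell, although 3 had an unadjusted p under 0.05, against 23.1% of all tested genes, and DESeq2 called 1 of them higher, against 7.29% of the genes it tested. The median log2 fold change, differentiated over precursor, was 0.86 for the synthesis side, 0.35 for oxidation and -0.04 over all tested genes. CPM values of differentiated libraries lay above those of all precursor libraries for 18 synthesis-side and 3 oxidation members, against 16.5% of all tested genes, and below them for 0 members, against 13.8% of all genes. The replicate numbers 1, 2 and 5 occur in both groups. Deviations from group means correlated at 0.421, 0.197 and 0.272 between libraries of the same number 1, 2 and 5. Between libraries of different numbers they correlated at -0.308 to 0.105. With the number as a block, 19 synthesis-side members were higher and 2 lower, and 4 oxidation members were higher, against 14.9% of all genes higher and 15.7% lower in that fit. The calls over all genes depended on single libraries, against 1005 higher and 571 lower with all 6. Leaving out differentiated 2 gave 484 and 148, leaving out differentiated 5 gave 500 and 170, leaving out precursor 2 gave 503 and 160, and leaving out precursor 5 gave 636 and 263. The synthesis-side count was 10 without precursor 2 and 11 to 15 without any other single library. By limma on log2(TPM + 1) and on log2(TPM + 0.1) it was 8, against 2.74% and 2.86% of all genes, and the calls lost were those of Acly, Slc25a1, Me1, Fads1, Elovl6, Hacd1 and Tecr.

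**Figure D1:**
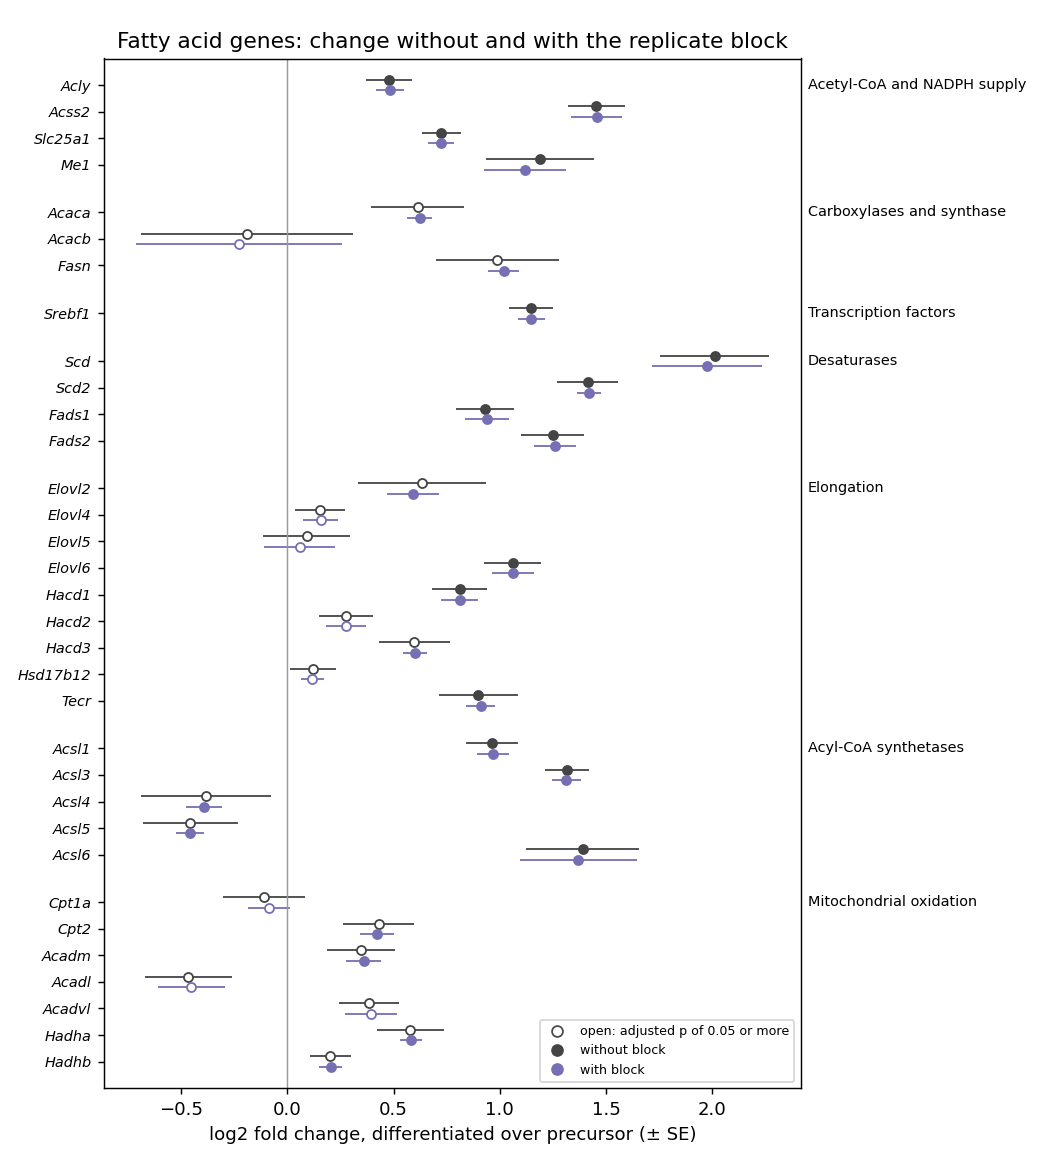
The log2 fold change of each tested member (x axis, differentiated over precursor, bars show the SE) is drawn by role, without the replicate block in grey and with it in purple, and filled points have an adjusted p under 0.05. The 4 desaturase genes and the 4 supply genes lie right of 0 in both fits, while the 7 oxidation genes lie between -0.47 and 0.58 without the block.

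The promoters of 5 members are shown, 4 that rose and hold the same short sequence near the annotated start, and 1 of the oxidation side. The letters are from RefSeq, build GRCr8, and run from 250 bases before to 50 bases after the start of the gene, of which 30 of the 34 members matched, 29 of them by gene ID and Hacd2 by symbol. Acaca, Fasn, Elovl6 and Acadl are not among them. Capitals mark CCAAT or its reverse complement ATTGG, the letters that the factor NF-Y binds beside sterol response elements in many lipid genes.
Scd2: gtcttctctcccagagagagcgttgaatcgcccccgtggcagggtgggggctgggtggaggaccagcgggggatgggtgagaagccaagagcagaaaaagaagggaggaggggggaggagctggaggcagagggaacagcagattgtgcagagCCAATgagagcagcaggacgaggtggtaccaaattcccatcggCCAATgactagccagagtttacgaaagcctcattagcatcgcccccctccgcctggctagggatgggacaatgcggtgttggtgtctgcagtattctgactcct
Acly: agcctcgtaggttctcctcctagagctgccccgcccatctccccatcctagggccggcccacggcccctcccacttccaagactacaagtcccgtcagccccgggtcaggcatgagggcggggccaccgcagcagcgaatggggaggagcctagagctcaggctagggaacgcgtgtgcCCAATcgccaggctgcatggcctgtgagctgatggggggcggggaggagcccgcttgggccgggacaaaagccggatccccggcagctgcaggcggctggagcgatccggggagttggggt
Acss2: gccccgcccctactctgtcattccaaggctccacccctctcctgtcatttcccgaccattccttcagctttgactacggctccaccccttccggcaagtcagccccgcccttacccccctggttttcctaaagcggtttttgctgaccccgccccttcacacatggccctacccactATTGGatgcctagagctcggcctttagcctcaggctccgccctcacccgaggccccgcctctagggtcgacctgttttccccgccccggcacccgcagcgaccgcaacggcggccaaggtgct
Acsl3: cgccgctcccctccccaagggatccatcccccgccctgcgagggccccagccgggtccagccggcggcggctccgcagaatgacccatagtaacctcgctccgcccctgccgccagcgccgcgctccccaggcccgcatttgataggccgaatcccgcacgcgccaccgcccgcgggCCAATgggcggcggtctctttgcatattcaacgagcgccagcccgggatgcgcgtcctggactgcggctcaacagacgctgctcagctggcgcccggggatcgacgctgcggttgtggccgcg
Hadha: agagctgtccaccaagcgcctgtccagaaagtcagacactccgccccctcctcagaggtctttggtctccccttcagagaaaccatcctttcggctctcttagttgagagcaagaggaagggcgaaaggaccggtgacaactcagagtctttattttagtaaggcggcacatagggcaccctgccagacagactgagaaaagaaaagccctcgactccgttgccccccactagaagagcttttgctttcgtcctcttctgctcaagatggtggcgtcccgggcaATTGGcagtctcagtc

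The Scd2 window is chr1:253118127-253118426 on the plus strand, that of Acly is chr10:85963582-85963881 on the minus strand, that of Acss2 is chr3:164464453-164464752 on the plus strand, that of Acsl3 is chr9:87563351-87563650 on the plus strand and that of Hadha is chr6:31907551-31907850 on the plus strand. The CCAAT letters began 71 bases before the annotated start in Acly, 73 bases before it in Acss2 on the opposite strand and 73 bases before it in Acsl3. Scd2 held them at 97 and at 54 bases before the start. On either strand, CCAAT was present in 14 of 24 synthesis-side windows (58.3%), in 1 of 6 oxidation windows (16.7%) and in 37.7% of 27457 windows of the same length over all genes. The 1 oxidation window was that of Hadha, where ATTGG began 34 bases after the start. Hadha and Hadhb lie head to head on opposite strands, and their windows share 200 bases, so they are not independent. The window of Scd held no CCAAT, and neither did those of Fads2, Me1, Hacd1 or Acsl6, which also rose. Windows of Acacb, Elovl4, Elovl5 and Hsd17b12, which were not called, and of Mlxipl, which was not tested, did hold it. The sterol response letters TCACNCCAC were in 0 of the 30 member windows and in 1.13% of all windows, the E-box CACGTG in 2 (Elovl5 and Hacd3) and in 6.65% of all, and the direct repeat 1 of nuclear receptors in 0 and in 0.0583% of all. CCAAT overlaps none of the other motifs in these windows. A match to letters is a description of the window and not a binding site.

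The genes of both transcription factors stood at very different levels. Srebf1 (78968) encodes SREBP1, which switches on genes of fatty acid synthesis. It had 326, 316 and 355 CPM in differentiated 1, 2 and 5, against 139, 155 and 156 CPM in precursors 1, 2 and 5. The groups did not overlap, and the log2 fold change was 1.15 (SE 0.10, adjusted p by edgeR = 0.00107). Its call held in all 14 alternative fits, with an adjusted p of at most 0.0428. Mlxipl (171078) encodes ChREBP, the carbohydrate-sensing counterpart. It had 0 reads in 5 libraries and 23 reads in precursor 5, or 0.319 CPM, and was too low to test. Its level was therefore not detectable above 3 counts per library in any differentiated culture.

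The genes that supply acetyl-CoA and NADPH all rose, where 5.65% of all tested genes did. Acss2 (311569), which makes acetyl-CoA from acetate, had 453, 369 and 402 CPM in differentiated 1, 2 and 5, against 130, 165 and 151 CPM in precursors 1, 2 and 5. All 3 differentiated libraries were above all precursors, at a log2 fold change of 1.45 (SE 0.13, adjusted p by edgeR = 0.00117), and the call held in all 14 alternatives. Slc25a1 (29743), the carrier that exports citrate from mitochondria, had 165, 158 and 153 CPM in differentiated cells, against 95.1, 98.5 and 94.9 CPM in precursors, a log2 fold change of 0.72 (adjusted p by edgeR = 0.00415). Acly (24159), which splits that citrate into acetyl-CoA, had 939, 956 and 945 CPM in differentiated cells, against 614, 751 and 673 CPM in precursors. The precursors spread more than the differentiated libraries, and the log2 fold change of 0.48 (SE 0.11, adjusted p by edgeR = 0.036) was the smallest among the 15 members called. The Acly call was lost on leaving out any 1 of the 6 libraries, with an adjusted p of up to 0.159. Me1 (24552), the malic enzyme that yields NADPH, had 226, 112 and 130 CPM in differentiated 1, 2 and 5, against 66.6, 66.2 and 72.1 CPM in precursors. Differentiated 1 stood well above the other differentiated libraries, which were themselves above all precursors. The log2 fold change was 1.19 (SE 0.26, adjusted p by edgeR = 0.0314), and the call was lost without any single precursor library or without differentiated 5 (adjusted p of up to 0.125).

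The synthase gene Fasn and the carboxylase gene Acaca lay higher in each same-numbered pair but did not pass without the block, and the other carboxylase gene, Acacb, had a low level in both groups. Fasn (50671), the synthase itself, had 1001, 1253 and 1673 CPM in differentiated 1, 2 and 5, against 431, 660 and 889 CPM in precursors 1, 2 and 5. In both groups replicate 1 was lowest and replicate 5 highest, and the groups did not overlap. Its log2 fold change was 0.99 (SE 0.29, adjusted p by edgeR = 0.0864), and with the block it was 1.02 (SE 0.07, adjusted p by edgeR = 0.000321). DESeq2 also called it higher without the block, at an adjusted p of 0.0096. Acaca (60581), the cytosolic carboxylase that commits acetyl-CoA to synthesis, had 164, 219 and 248 CPM in differentiated cells, against 103, 139 and 170 CPM in precursors. Differentiated 1 lay below precursor 5, so the groups overlapped, and the log2 fold change of 0.61 (adjusted p by edgeR = 0.149) passed with the block at 0.62 (adjusted p by edgeR = 0.000764). Acacb (116719), the carboxylase of the mitochondrial surface whose product restrains the carnitine shuttle, had 0.502 to 1.16 CPM in differentiated cells, against 0.628 to 1.16 CPM in precursors. On the TPM scale, which corrects for transcript length, it made up 0.228% to 0.323% of the carboxylase total in differentiated libraries, against 0.368% to 0.574% in precursor libraries.

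The 4 desaturase genes rose, where 5.65% of all tested genes did, and Scd2 had the highest level of all members. Scd2 (83792), a stearoyl-CoA desaturase of the rodent brain, puts a double bond into saturated chains. Its level was 7675, 8532 and 9226 CPM in differentiated 1, 2 and 5, against 2673, 3328 and 3544 CPM in precursors 1, 2 and 5. All differentiated libraries were above all precursors, at a log2 fold change of 1.41 (SE 0.14, adjusted p by edgeR = 0.00169). Scd (246074), its paralog, had 1005, 537 and 676 CPM in differentiated cells, against 147, 186 and 218 CPM in precursors, the largest change among the members at a log2 fold change of 2.01 (SE 0.26, adjusted p by edgeR = 0.00427). Differentiated 1 was the highest library for Scd and the lowest differentiated library for Scd2. Scd2 exceeded Scd 7.18-, 15.0- and 12.8-fold by TPM in differentiated 1, 2 and 5, against 16.9-, 17.0- and 15.2-fold in precursors. The sources used here do not say how reads that match both paralogs were divided, which leaves the level of Scd in particular uncertain.

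Both front-end desaturases of polyunsaturated fatty acids rose. Fads2 (83512), which acts first on the essential fatty acids, had 322, 296 and 343 CPM in differentiated 1, 2 and 5, against 110, 141 and 154 CPM in precursors (log2 fold change 1.25, SE 0.15, adjusted p by edgeR = 0.00306). Fads1 (84575), the next desaturase of that path, had 611, 540 and 596 CPM in differentiated cells, against 255, 314 and 348 CPM in precursors (log2 fold change 0.93, SE 0.14, adjusted p by edgeR = 0.0073). Fads2 took 50.1% to 51.6% of the TPM of the pair in differentiated libraries, against 44.4% to 44.6% in precursor libraries, so that the shares did not overlap between the groups. Calls of Scd, Scd2 and Fads2 held in all 14 alternatives, and the adjusted p of Fads1 was at most 0.112 over them.

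**Figure D2:**
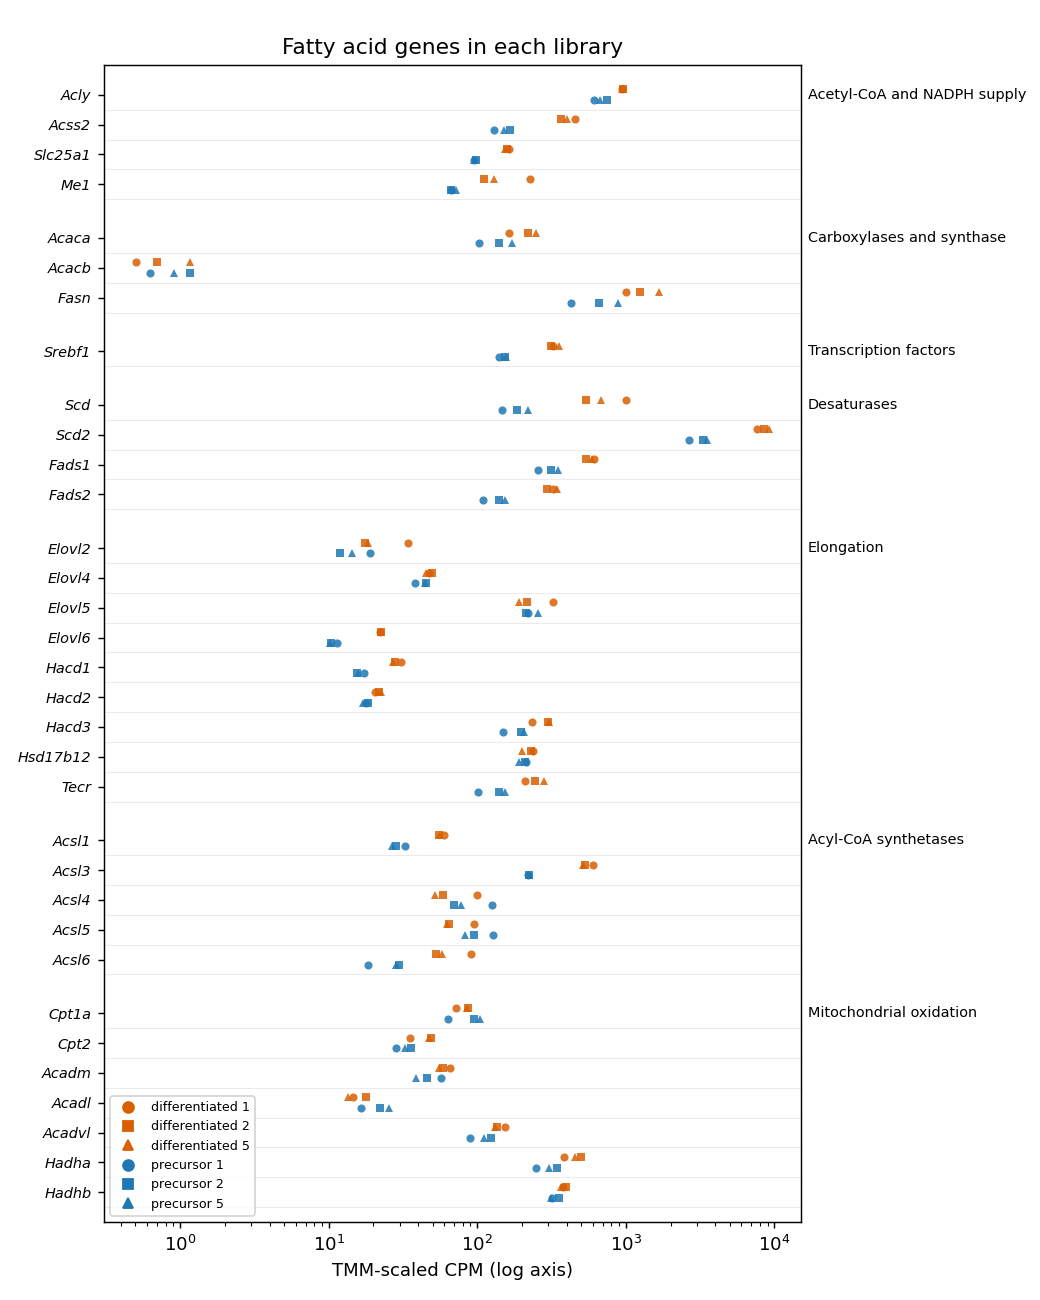
Each point is the TMM-scaled CPM of a member in 1 library (log x axis), differentiated libraries in orange above precursor libraries in blue, with the replicate number as the marker shape. Srebf1, Acss2, Scd2, Scd, Fads2, Elovl6, Acsl1 and Acsl3 separate by group with no overlap, whereas the groups of Elovl5, Acsl4, Acsl5, Cpt1a and Acadl overlap.

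All 9 elongation genes had a log2 fold change above 0 in the edgeR fit without the block. Of these, 3 passed as higher and 0 as lower, where 5.65% of all tested genes rose and 3.21% fell. Elovl6 (171402), the elongase that turns palmitate into stearate, had 22.0, 22.3 and 22.4 CPM in differentiated 1, 2 and 5, against 11.4, 10.4 and 10.2 CPM in precursors 1, 2 and 5. The libraries of each group lay close together, and its log2 fold change was 1.06 (SE 0.13, adjusted p by edgeR = 0.00401). Tecr (191576), the reductase that closes each elongation round, had 210, 244 and 283 CPM in differentiated cells, against 102, 141 and 153 CPM in precursors, a log2 fold change of 0.90 (adjusted p by edgeR = 0.0265). Leaving out precursor 2, differentiated 2 or differentiated 5 ended that call (adjusted p of up to 0.105). Hacd1 (680115), a dehydratase of the same round, had 30.6, 27.8 and 27.2 CPM in differentiated cells, against 17.4, 15.5 and 15.9 CPM in precursors, a log2 fold change of 0.81 (adjusted p by edgeR = 0.01). The Hacd1 call ended without precursor 2 or differentiated 2, with an adjusted p of up to 0.0559.

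The other 6 elongation genes did not pass the test. Hacd3 (300783), the most abundant dehydratase by TPM, had 233, 298 and 305 CPM in differentiated cells, against 149, 196 and 208 CPM in precursors. Its groups did not overlap, and it passed with the block at a log2 fold change of 0.60 (adjusted p by edgeR = 0.000668, and 0.0754 without it). Hacd3 was also called higher by DESeq2, without differentiated 1 and without replicate 1 of both groups. Elovl2 (498728), an elongase of polyunsaturated chains, had 34.1, 17.6 and 18.3 CPM in differentiated 1, 2 and 5, against 18.9 and 14.3 CPM in precursors 1 and 5 and less in precursor 2, and passed only in the fit with the block (log2 fold change 0.59, adjusted p by edgeR = 0.0129, and 0.265 without it). In both groups replicate 1 was its highest library. Elovl5 (171400), another elongase of polyunsaturated chains, had 324, 216 and 192 CPM in differentiated cells, against 220, 212 and 256 CPM in precursors, and its same-numbered pairs went both ways. It made up 69.6% to 77.3% of the TPM of the 4 elongase genes in differentiated libraries, against 76.3% to 79.8% in precursor libraries, while Elovl6 made up 5.55% to 8.89% in differentiated libraries, against 3.48% to 4.40% in precursor libraries. Elovl4 (315851), which makes very long chains, Hsd17b12 (84013), the ketoacyl reductase of the round, and the dehydratase gene Hacd2 (288058) had log2 fold changes of 0.15, 0.12 and 0.28 and were not called with the block either. The signs for Elovl4, Elovl5 and Hsd17b12 turned with library size alone as the scaling and on the TPM scale, where the median of all genes itself moved to -0.19 and -0.17.

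Of the 5 long-chain acyl-CoA synthetase genes, 3 rose and 0 fell, where 5.65% of all tested genes rose and 3.21% fell. The others lay lower in differentiated cells in every same-numbered pair, a pattern whose share over all genes was not computed. Acsl3 (114024), a synthetase of the endoplasmic reticulum and lipid droplets, had 606, 532 and 516 CPM in differentiated 1, 2 and 5, against 219, 223 and 222 CPM in precursors 1, 2 and 5. Precursors hardly differed among themselves, and the log2 fold change was 1.32 (SE 0.10, adjusted p by edgeR = 0.00063), with the call kept in all 14 alternatives. Acsl1 (25288) had 60.1, 55.2 and 55.9 CPM in differentiated cells, against 32.7, 28.3 and 26.8 CPM in precursors, at a log2 fold change of 0.96 (adjusted p by edgeR = 0.00391). Acsl6 (117243), a brain synthetase that prefers polyunsaturated chains, had 90.7, 53.1 and 57.5 CPM in differentiated cells, against 18.4, 29.8 and 28.6 CPM in precursors. The replicate 1 libraries were its highest and its lowest, and its call at a log2 fold change of 1.39 (adjusted p by edgeR = 0.0208) was lost without precursor 2, precursor 5 or differentiated 5 (adjusted p of up to 0.0682).

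The other synthetase genes, Acsl5 and Acsl4, did not pass in the fit of all 6 libraries without the block. Both passed as lower with it, and Acsl5 also by limma on both TPM scales (adjusted p of at most 0.0331) and without replicate 1 of both groups (adjusted p by edgeR = 0.0322). Acsl5 (94340), a synthetase of mitochondrial and reticulum membranes, had 95.3, 64.6 and 62.6 CPM in differentiated 1, 2 and 5, against 128, 95.3 and 82.3 CPM in precursors 1, 2 and 5. Acsl4 (113976), which prefers arachidonate, had 98.8, 59.0 and 51.6 CPM in differentiated cells, against 125, 70.2 and 77.6 CPM in precursors. Each was lower in 3 of 3 same-numbered pairs, although the groups overlapped, since differentiated 1 lay above precursors 2 and 5 for both genes, for Acsl5 only just above precursor 2. Their log2 fold changes were -0.46 for Acsl5 and -0.38 for Acsl4, not called without the block (adjusted p by edgeR = 0.276 and 0.521) and lower with it (adjusted p by edgeR = 0.00366 and 0.0151). Microglia markers were also highest in both replicate 1 libraries, and their part in these levels was not tested. By TPM, Acsl4 and Acsl5 together made up 18.0%, 14.4% and 14.0% of the 5 synthetase genes in differentiated 1, 2 and 5, against 44.9%, 35.4% and 33.5% in precursors, while Acsl3 made up 67.8%, 72.9% and 72.7% in differentiated libraries, against 46.5%, 53.7% and 55.1% in precursors. In RefSeq the spans of Acsl3, Acsl5 and Hacd3 overlap those of other genes that reached 10% of their level, and the strand setting of the counting is not given, so their counts are less certain.

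**Figure D3:**
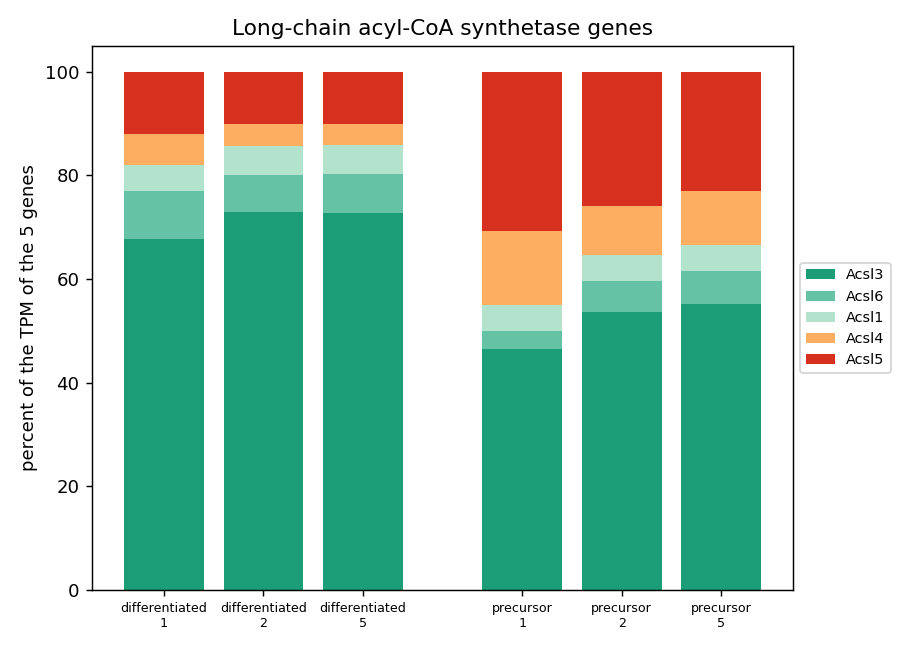
Bars give the percent of the summed TPM of 5 acyl-CoA synthetase genes in each library, with differentiated libraries on the left and precursors on the right. Acsl3 takes 67.8% to 72.9% in differentiated libraries, against 46.5% to 55.1% in precursor libraries, and the summed share of Acsl4 and Acsl5 is smaller in every differentiated library than in any precursor library.

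The oxidation genes lay on both sides of no change. Of the 7, 5 were higher and 1 was lower in all same-numbered pairs. The share of all tested genes that did so was not computed, so these counts have no background. Cpt1a (25757), the gate of the carnitine shuttle that malonyl-CoA inhibits, had 72.0, 86.2 and 85.3 CPM in differentiated 1, 2 and 5, against 63.4, 95.8 and 104 CPM in precursors 1, 2 and 5. Its groups overlapped and its pairs went both ways, at a log2 fold change of -0.11 (SE 0.19, adjusted p by edgeR = 0.795). Cpt2 (25413), which rebuilds acyl-CoA on the inner side, had 35.0, 48.5 and 47.1 CPM in differentiated cells, against 28.2, 36.0 and 32.7 CPM in precursors (log2 fold change 0.43, adjusted p by edgeR = 0.178, and 0.00972 with the block). Among the acyl-CoA dehydrogenases, which take the first oxidative step on chains of different length, Acadvl (25363) had 153, 136 and 132 CPM in differentiated cells, against 89.2, 123 and 110 CPM in precursors. Acadm (24158) had 65.5, 58.9 and 55.2 CPM in differentiated cells, against 56.7, 46.0 and 38.6 CPM in precursors. Acadl (25287) had 14.6, 17.9 and 13.6 CPM in differentiated cells, against 16.4, 22.0 and 25.3 CPM in precursors, lower in 3 of 3 pairs. The log2 fold changes were 0.39 for Acadvl, 0.35 for Acadm and -0.47 for Acadl, with edgeR adjusted p of 0.159, 0.254 and 0.229 without the block and 0.0545, 0.0196 and 0.0748 with it.

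The trifunctional protein, whose alpha and beta subunits carry out the last steps on long chains, had the most abundant transcripts of the oxidation side. Hadha (170670), the alpha subunit, had 382, 502 and 457 CPM in differentiated 1, 2 and 5, against 249, 347 and 302 CPM in precursors 1, 2 and 5. Its groups did not overlap, and its log2 fold change of 0.58 (SE 0.16, adjusted p by edgeR = 0.0709, and 0.000632 with the block) was the largest of the 7. Hadhb (171155), the beta subunit, had 376, 393 and 367 CPM in differentiated cells, against 318, 354 and 316 CPM in precursors, a log2 fold change of 0.20 (adjusted p by edgeR = 0.271, and 0.0303 with the block). On the TPM scale Hadhb had a log2 fold change of -0.06, so its direction depends on the scaling. The oxidation median was 0.22 without precursor 5.

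Levels of different genes were compared by TPM within each library, since TPM is per transcript length. The abundant small RNA Rn7sl1 took 34.2% to 38.8% of the TPM of differentiated libraries, against 24.0% to 32.8% in precursor libraries, which lowers every other TPM, so ratios within a library are given. Summed TPM of the synthesis side was 7.82, 6.90 and 7.98 times that of the oxidation members in differentiated 1, 2 and 5, against 4.52, 4.23 and 4.92 times in precursors 1, 2 and 5. Without Scd2 the ratios were 4.66, 3.75 and 4.32 in differentiated libraries, against 3.03, 2.75 and 3.17 in precursor libraries, so they still did not overlap. Scd2 made up 40.5%, 45.6% and 45.9% of the synthesis-side TPM in differentiated 1, 2 and 5, against 32.9%, 35.0% and 35.5% in precursors. Fasn TPM was 6.83, 7.18 and 9.67 times Cpt1a TPM in differentiated libraries, against 3.33, 3.40 and 4.22 times in precursor libraries. In mean TPM Scd2 ranked 1 of the 34 members in both groups, Hadhb ranked 5 in differentiated cells and 2 in precursors, and Scd ranked 9 in differentiated cells and 17 in precursors.

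**Figure D4:**
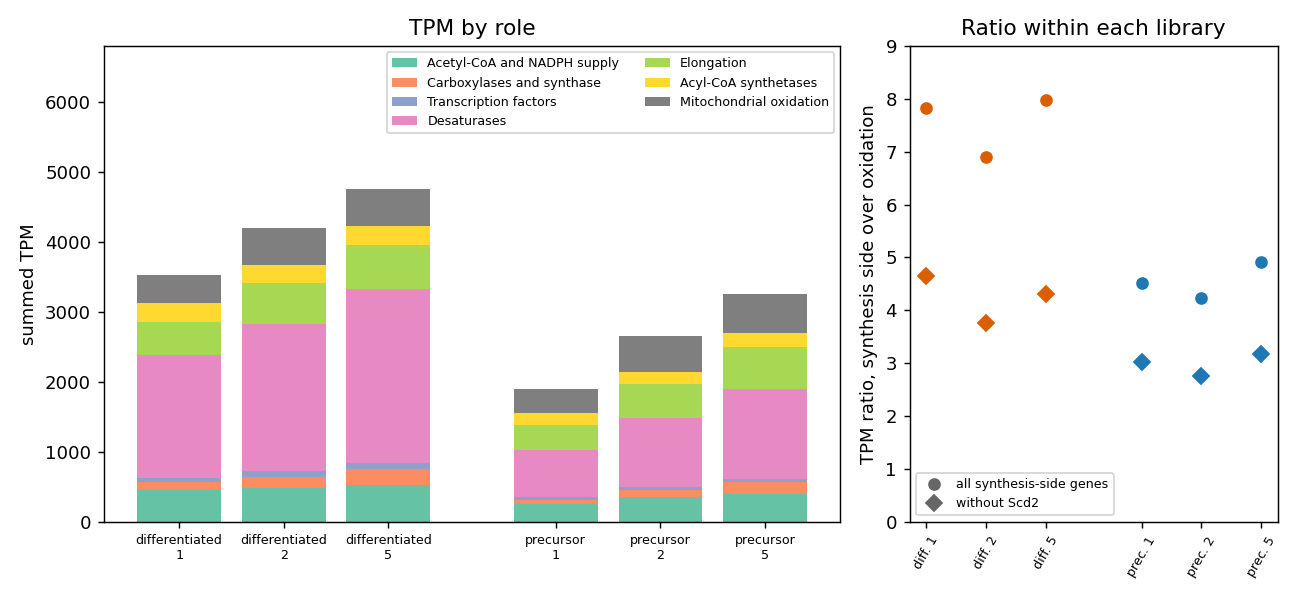
The left panel stacks the TPM of the members by role in each library, and the right panel gives the ratio of synthesis-side to oxidation TPM within each library, with Scd2 (circles) and without it (diamonds). The ratio is 6.90 to 7.98 in differentiated libraries, against 4.23 to 4.92 in precursor libraries.

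Other genes of fatty acid metabolism, in lists chosen for their function, were counted in the same way. Of 24 further genes of synthesis, elongation and their regulation that were tested, 7 rose and 0 fell, at a median log2 fold change of 0.39. Thrsp (25357), a lipogenic protein, stood at 15.4 ± 11.5 CPM in differentiated cells and 2.95 ± 0.625 CPM in precursors (SD, n = 3 each), a log2 fold change of 2.39, with differentiated 1 at 28.7 CPM far above the other differentiated libraries. Its relative Mid1ip1 (404280), which promotes assembly of the carboxylase into active filaments, was at 233 ± 1.57 CPM in differentiated cells and 105 ± 9.37 CPM in precursors (SD, n = 3 each). The elongase Elovl7 (361895) stood at 9.31 ± 1.89 CPM in differentiated cells and 2.12 ± 0.122 CPM in precursors, and Elovl1 (679532), the elongase of saturated very long chains, at 93.6 ± 6.99 CPM in differentiated cells and 50.5 ± 9.69 CPM in precursors. Acsbg1 (171410), a synthetase of very long chains, stood at 346 ± 27.5 CPM in differentiated cells and 130.3 ± 17.7 CPM in precursors. Of 26 further oxidation genes tested, 2 rose and 0 fell, at a median of 0.14, where 5.65% of all tested genes rose. These were Hadh (113965), the dehydrogenase of shorter hydroxyacyl chains, with a log2 fold change of 0.95, and Acadsb (25618), which acts on short branched chains of amino acid breakdown, with 1.52. Of 15 genes of uptake and binding tested, a share near that over all genes passed: 1 rose and 0 fell, at a median of 0.12, and the gene was the transporter Slc27a4 (311839, log2 fold change 0.62). With the block, 13 further synthesis genes were higher and 2 lower, 6 further oxidation genes were higher and 0 lower, and 4 uptake and binding genes were higher and 3 lower, where 14.9% of all genes were higher and 15.7% lower.

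**Figure D5:**
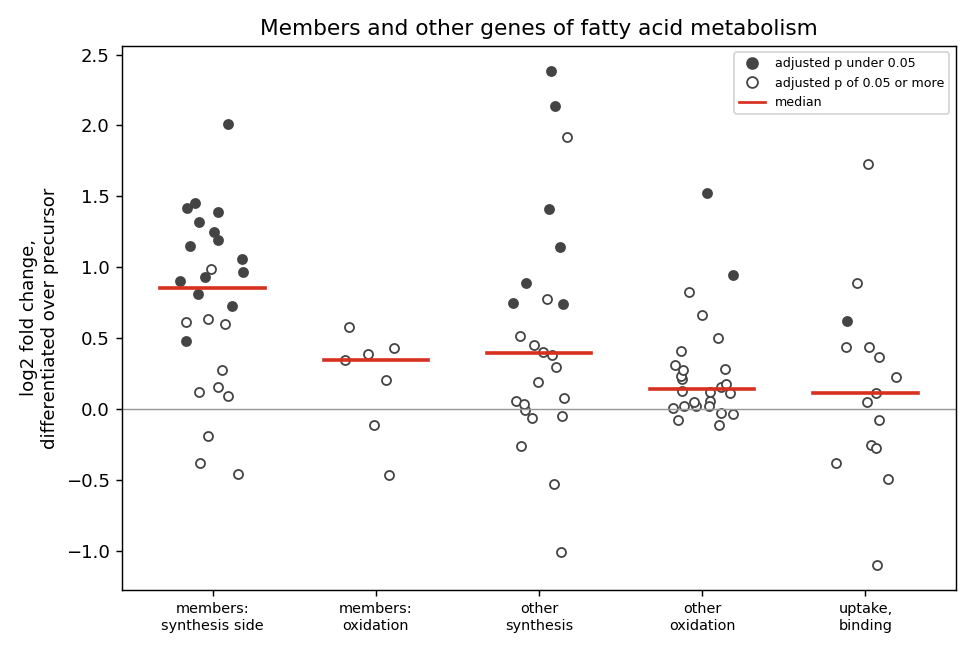
Points are log2 fold changes (y axis, differentiated over precursor, without the block) of the tested members and of 3 further lists, with filled points at an adjusted p under 0.05 and red bars at the medians. The medians are 0.86 for synthesis-side members, 0.35 for oxidation members, 0.39 for further synthesis genes, 0.14 for further oxidation genes and 0.12 for uptake and binding genes.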

How the data were processed

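Per the submitters' processing notes, the authors used HISAT2 2.1.0, StringTie 2.1.3b, Trimmomatic 0.38 and bcl2fastq 2.20.0. These notes name the human build GRCh38, whereas the deposited table uses rat gene identifiers. No source used here gives the rat build, the release of the annotation or how strand was counted. A stranded kit for total RNA was used, per the labels' protocols. Read counts were deposited as whole numbers, not normalized. The deposited TPM values were scaled by the authors to a fixed total per library. The FPKM values, scaled by the authors for length and library size, were deposited but not used. The table holds 0 columns of samples outside the series.

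Counts of 37991 genes were fitted with edgeR 4.0.16 in R 4.3.3 (quasi-likelihood test, low-count filter, TMM scaling, robust estimation, 17797 genes tested, Benjamini-Hochberg adjustment, threshold 0.05). The procedure was tested on simulated data. The SE is the size of the log2 fold change divided by the square root of F. CPM used TMM-scaled library sizes. Alternatives were a replicate block, DESeq2 1.42.0 and its size factors in edgeR, library size alone, no filter, limma 3.58.1 on log2(TPM + 1) and log2(TPM + 0.1), and fits without single libraries or without replicate 1 of both groups. The members and lists were chosen with earlier results of these data known. All 34 members are named. In the further lists, called genes are named, at most 5 per list by size of change. Same-numbered libraries correlated in their deviations from group means at 0.421, 0.197 and 0.272 for replicates 1, 2 and 5. Differently numbered libraries correlated at -0.308 to -0.227 where 1 of them was replicate 1, and at 0.105 and 0.0987 between replicates 2 and 5. The numbers were treated as pairs on that basis, without a statement in the labels, and replicates 2 and 5 were set apart only weakly.

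Promoter windows were read from RefSeq (GRCr8), which serves here for names and sequences only, and both strands were searched.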

Additional observations from a re-analysis of the deposited data

How the results depend on the processing

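Of the 15 members called, 15 kept their direction in all 14 alternatives and 10 kept their call in all 6 fits that left out 1 library, the exceptions being Acly, Me1, Hacd1, Tecr and Acsl6. Counts over all genes were 2643 higher and 2797 lower with the replicate block, which made no call turn or vanish among the members, 1529 and 1462 without replicate 1 of both groups, 487 and 1000 by limma on log2(TPM + 1), and 509 and 1090 on log2(TPM + 0.1). They were 1193 lower with DESeq2 and 1006 lower with library size alone, and without single libraries 484 to 947 higher and 148 to 561 lower. The synthesis-side count was 8 higher and 1 lower (Acsl5) on both TPM scales, 2 lower with the block, and 1 lower (Acsl5) without replicate 1 of both groups. Oxidation members called higher numbered 4 with the block, 2 without replicate 1 of both groups and 1 with DESeq2. The synthesis-side median moved to 0.70 by library size alone, to 0.58 and 0.60 by TPM, to 0.80 without replicate 1 of both groups and ranged over 0.78 to 0.87 without single libraries. The oxidation median moved to 0.20 by library size alone, to 0.10 by TPM at both pseudocounts, to 0.21 without replicate 1 of both groups and ranged over 0.22 to 0.37 without single libraries. Over all genes the median moved to -0.19 by library size alone, and to -0.17 and -0.26 by TPM. Signs turned for Elovl4 (-0.0020 by library size alone, -0.061 and -0.063 by TPM), Elovl5 (-0.079, -0.19 and -0.19 in the same fits, -0.19 without replicate 1 of both groups, and -0.16 to 0.24 without single libraries), Hsd17b12 (-0.030, -0.14 and -0.14), Hadhb (-0.057 on both TPM scales), Acacb (-0.58 to 0.061 without single libraries) and Cpt1a (-0.29 to 0.025 without single libraries). None of these was called without the block, and Hadhb was called higher with it. Except where construction shows it, as in fits with fewer samples, the cause was not tested. Depth limits Mlxipl and Acacb, which had few reads.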
